A study of Triticum aestivum with 24 samples.

Results

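The wheat homoeologues *GID1-A1* (TraesCS1A02G255100), *GID1-B1* (TraesCS1B02G265900) and *GID1-D1* (TraesCS1D02G254500) are described here in every library of the series. They were chosen by identifier and are 3 of its 107891 gene models. The names were given with the choice of the identifiers, and neither the table nor the sources used here pair them. By their identifiers they lie on chromosomes 1A, 1B and 1D. Their coordinates were not used here, and the table holds identifiers without gene names, exon structures or sequences. RNA was measured in leaf sheaths, taken from the grain up to where the coleoptile ends, of 7-d-old seedlings of hexaploid wheat. The genotypes were the *idd5* mutant, the *Rht-D1b* near-isogenic line and wild-type Cadenza, and all 3 share the Cadenza background. Seedlings of each genotype were treated with 100 µM GA3 (gibberellic acid, a bioactive gibberellin) or with water, and the tissue was taken 8 h later. Each of the 6 groups had 4 biological replicates, which gave 24 libraries.

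GID1 is the soluble receptor of gibberellin (GA). When a bioactive GA occupies its pocket, GID1 binds the N-terminal part of DELLA proteins, which hold back growth, and the complex is recognised by an F-box protein (GID2 in rice) that sends the DELLA protein to the proteasome. In Arabidopsis, transcripts of the receptor genes are lowered by GA and raised where DELLA proteins accumulate, one arm of the feedback that keeps GA signalling near a set level. DELLA proteins of wheat are encoded by the *RHT* homoeologues, and they have no DNA-binding domain of their own but act through partners such as the zinc finger proteins of the INDETERMINATE DOMAIN (IDD) family.

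The lines set limits on what a contrast compares. The *idd5* line combines chemically induced mutations in all 3 *IDD5* homoeologues, premature stop codons in *IDD5-A1* and *IDD5-D1* and a splice donor mutation in *IDD5-B1*, and it was set against Cadenza rather than against a sister line without the mutations. Other induced mutations that remained after backcrossing cannot be told apart from those in *IDD5*. *Rht-D1b* is the semi-dwarfing allele of *RHT-D1*, whose product lacks the N-terminal part that GID1 binds. In sheath tissue as a whole, fewer cells that express a gene and less RNA per cell cannot be told apart. The labelled tissue was not checked against marker genes, because no marker genes of the sheath were matched to these identifiers here.

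Values are TPM, the abundance of a gene's transcripts scaled to its length and to the library total, so levels of the 3 homoeologues can be compared. Depth is unknown, and the precision rests on 4 replicates. Between 56583 and 58700 genes per library had at least 0.5 TPM, and the median correlation of a library with the others of its group was between 0.963 and 0.975. *IDD5-B1* averaged 34.2 ± 2.48 TPM in GA-treated *idd5*, against 9.24 ± 0.243 TPM in GA-treated Cadenza (SD, n = 4 each), while *IDD5-A1* and *IDD5-D1* passed the test in no comparison. The TPM of a gene does not check a stop codon or an unspliced intron. One library, replicate 2 of GA-treated *idd5*, stood apart in an interval of chromosome 2A that is low in *idd5*, where 22 of the 37 genes with a Cadenza mean of at least 5 TPM were at 0 TPM. The fold changes, responses, sums and shares that rest on it are also given without it, an alternative that for sums, shares and the ratio to *RHT* was chosen after seeing the data. The 3 members passed the filter on low values in all 6 groups and are among the 63241 genes tested. Tests were made with limma on log2(TPM + 0.5) in 1 fit of all 24 libraries, with Benjamini-Hochberg adjustment over all genes tested, and a gene was called at an adjusted p under 0.01. Fold changes on this scale understate the change of a gene with low TPM.

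The receptor transcripts had 3 levels across the 6 groups. They were high in both semi-dwarf lines with and without GA3, lower in water-treated Cadenza, and lowest in GA-treated Cadenza. *GID1-A1* had 10.5, 16.6, 19.3 and 14.9 TPM in replicates 1 to 4 of GA-treated *idd5*, and 16.4, 19.9, 16.9 and 12.5 TPM in water-treated *idd5*. It had 13.4, 15.8, 17.8 and 13.6 TPM in GA-treated *Rht-D1b* and 13.7, 11.3, 14.2 and 21.2 TPM in water-treated *Rht-D1b*. In Cadenza it had 4.43, 4.40, 4.70 and 5.99 TPM with GA3 and 10.4, 9.86, 8.89 and 9.34 TPM with water. Every mutant library was above all 8 Cadenza libraries for this homoeologue, although the lowest, replicate 1 of GA-treated *idd5*, was close to the highest of the water-treated Cadenza libraries. The share of all genes tested with this joint split was not counted, for this homoeologue or the other members. Shares for single pairs of groups are given with the contrasts below.

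*GID1-B1*, the copy on the B genome, showed the same 3 levels. It had 14.2, 13.2, 14.7 and 16.6 TPM in GA-treated *idd5*, and 15.5, 15.2, 16.0 and 14.9 TPM in water-treated *idd5*. It had 12.5, 12.9, 15.1 and 10.9 TPM in GA-treated *Rht-D1b* and 14.4, 11.9, 12.6 and 14.5 TPM in water-treated *Rht-D1b*. The Cadenza libraries had 3.10, 4.41, 5.59 and 5.56 TPM with GA3 and 10.2, 8.04, 7.51 and 8.19 TPM with water. Again no mutant library overlapped with Cadenza, and within Cadenza no GA-treated library overlapped with a water-treated one.

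*GID1-D1*, the copy on the D genome, followed. It had 13.0, 15.3, 18.2 and 15.0 TPM in GA-treated *idd5* and 15.9, 17.9, 16.8 and 15.1 TPM in water-treated *idd5*. It had 12.5, 14.4, 20.4 and 13.4 TPM in GA-treated *Rht-D1b* and 15.4, 11.6, 15.5 and 17.3 TPM in water-treated *Rht-D1b*. The Cadenza libraries had 5.21, 3.59, 5.52 and 4.36 TPM with GA3 and 8.68, 10.3, 7.61 and 9.77 TPM with water. The order of the groups was that of the other homoeologues, with every mutant library above every Cadenza library and every GA-treated Cadenza library below every water-treated one.

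**Figure D1:**
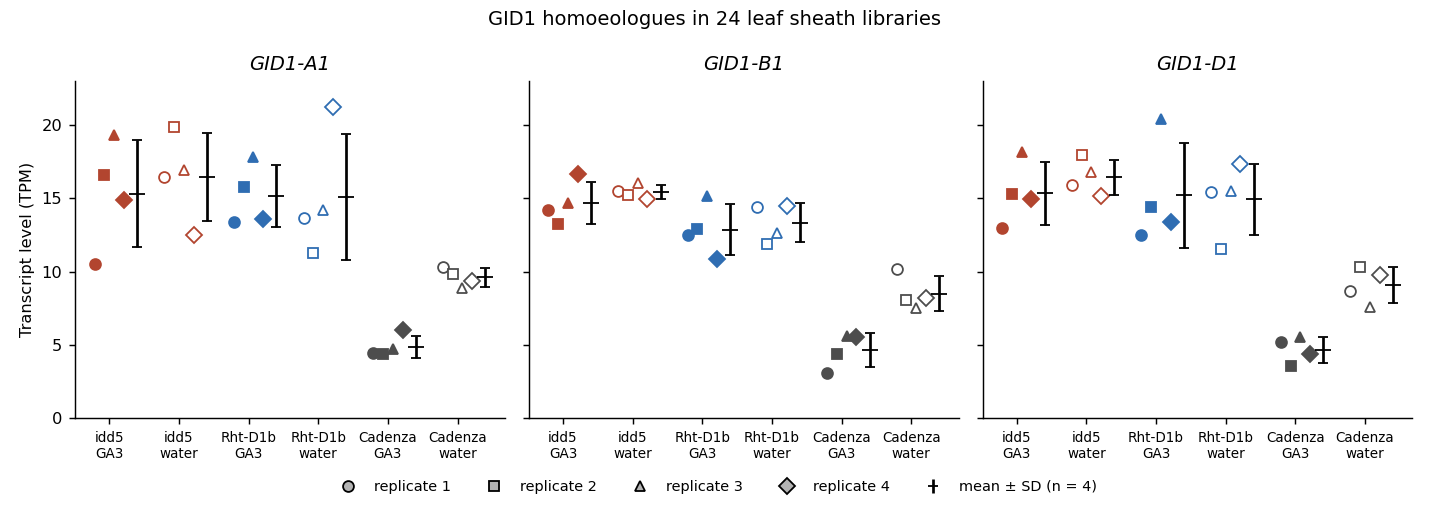
Transcript level in TPM of each *GID1* homoeologue in 24 libraries, 1 point per library (shape gives the replicate number, filled points are GA-treated and open points water-treated), with the mean ± SD of 4 replicates beside each group. All 16 mutant libraries sit above all 8 Cadenza libraries in each panel, and GA-treated Cadenza is lowest, between 3.10 and 5.99 TPM. The share of all genes tested with this joint split was not counted.

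Set among the other genes, the receptor transcripts were of middle abundance in GA-treated Cadenza and well above the middle in the semi-dwarf lines. The group mean of each homoeologue lay between percentiles 79.2 and 83.3 of the genes tested in the 4 mutant groups, between percentiles 52.9 and 54.1 in GA-treated Cadenza, and between percentiles 68.5 and 71.5 in water-treated Cadenza. Summed over the homoeologues, *GID1* transcripts averaged 45.4 ± 5.95 TPM in GA-treated *idd5*, 48.3 ± 4.36 TPM in water-treated *idd5*, 43.2 ± 7.21 TPM in GA-treated *Rht-D1b* and 43.4 ± 7.51 TPM in water-treated *Rht-D1b* (SD, n = 4 each). The sum averaged 14.2 ± 1.91 TPM in GA-treated Cadenza and 27.2 ± 2.27 TPM in water-treated Cadenza (SD, n = 4 each). Without replicate 2 of GA-treated *idd5* its sum averaged 45.5 ± 7.28 TPM (SD, n = 3). The order of the 4 mutant groups is not a result, as their ranges overlapped in each pair set against each other.

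The response of wild-type plants to GA3 was the first comparison. All 3 homoeologues were lower in each GA-treated Cadenza library than in each water-treated one, and the summed level with GA3 was 52.3% of that with water. *GID1-B1* fell, with a log2 fold change of -0.82 (SE 0.13, 95% interval -1.10 to -0.54, limma adjusted p = 0.00567). *GID1-D1* fell by nearly the same amount, with a log2 fold change of -0.90 (SE 0.15, interval -1.21 to -0.59, limma adjusted p = 0.00644). *GID1-A1* had a log2 fold change of -0.92 (SE 0.17, interval -1.28 to -0.55) and missed the threshold with a limma adjusted p of 0.0189. So 2 of 3 members were called lower, beside 0.0443% of all genes tested (0.0965% in either direction), and non-overlapping groups with GA3 lower were found in 3.72% of genes. By p-value *GID1-B1*, *GID1-D1* and *GID1-A1* ranked at positions 43, 45 and 99 of the 63241 genes. The exact two-sided permutation test of 4 libraries against 4 gave p = 0.0286 for each, the smallest that this design allows.

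The direction of this response did not depend on any single library, but the calls did. Leaving out 1 Cadenza library at a time, the log2 fold change of *GID1-B1* was between -0.91 and -0.66, and the call held only without GA-treated replicate 3 or replicate 4 (limma adjusted p between 0.00568 and 0.0280 over the 8 fits). That of *GID1-D1* was between -0.98 and -0.79, and the call held only without GA-treated replicate 3 (limma adjusted p between 0.00870 and 0.0333). When the fit held the 8 Cadenza libraries alone, the limma adjusted p was 0.0967 for *GID1-B1* and 0.0432 for *GID1-D1*.

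In the semi-dwarf lines the same treatment left the receptor transcripts within the replicate spread. In *idd5* the log2 fold changes of GA3 over water were -0.11 for *GID1-A1*, -0.07 for *GID1-B1* and -0.10 for *GID1-D1*, and the limma adjusted p was at least 0.955 for each. Their 95% intervals ran from -0.48 to 0.25, from -0.35 to 0.21 and from -0.41 to 0.21, so a fall of the size estimated in Cadenza lies outside each of them. Without GA-treated *idd5* replicate 2 the log2 fold changes were -0.16, -0.03 and -0.10 (limma adjusted p at least 0.948). In *Rht-D1b* the log2 fold changes were 0.03 for *GID1-A1*, -0.06 for *GID1-B1* and 0.01 for *GID1-D1* (limma adjusted p at least 0.987), with intervals from -0.33 to 0.40, from -0.34 to 0.22 and from -0.30 to 0.32. The GA-treated and water-treated groups overlapped for all 3 members in both lines. The summed level with GA3 was 93.9% of that with water in *idd5* and 99.6% in *Rht-D1b*. Neither line had a gene called for GA3 over water (0% of 63241 genes by limma). An unadjusted p under 0.05 was found for 4216 genes in the *idd5* contrast and for 3705 in that of *Rht-D1b*.

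Whether the response differed between genotypes was tested directly, as a difference of differences in the same fit. Relative to Cadenza, the GA3 response of *idd5* was higher by 0.81 log2 units for *GID1-A1* (95% interval 0.29 to 1.32), 0.75 for *GID1-B1* (0.35 to 1.14) and 0.80 for *GID1-D1* (0.36 to 1.23). The unadjusted limma p-values were 0.00366, 0.000706 and 0.00104 in that order, and after adjustment over all genes they were 0.608, 0.372 and 0.388, so no member passed. Without GA-treated *idd5* replicate 2 the differences were 0.76, 0.80 and 0.80, and the limma adjusted p-values 0.715, 0.402 and 0.499. The response of *Rht-D1b* relative to Cadenza was higher by 0.95 for *GID1-A1* (0.44 to 1.46), 0.77 for *GID1-B1* (0.37 to 1.16) and 0.91 for *GID1-D1* (0.47 to 1.35). Here the unadjusted limma p-values were 0.000898, 0.000572 and 0.000275, and the adjusted ones 0.449, 0.449 and 0.360. No gene of the 63241 passed either test (0% called by limma), and an unadjusted p under 0.05 was found for 5.68% of genes in the first and 5.98% in the second. Between the semi-dwarf lines the responses differed by -0.15, -0.02 and -0.12 for *GID1-A1*, *GID1-B1* and *GID1-D1*, with intervals from -0.66 to 0.37, from -0.41 to 0.38 and from -0.55 to 0.32, and none passed (limma adjusted p at least 0.999, 0% of genes called and 4.8% at an unadjusted p under 0.05). Without GA-treated *idd5* replicate 2 these differences were -0.19, 0.03 and -0.12 (limma adjusted p at least 0.998). The 2 contrasts with Cadenza share its 8 libraries and are not independent of each other.

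**Figure D2:**
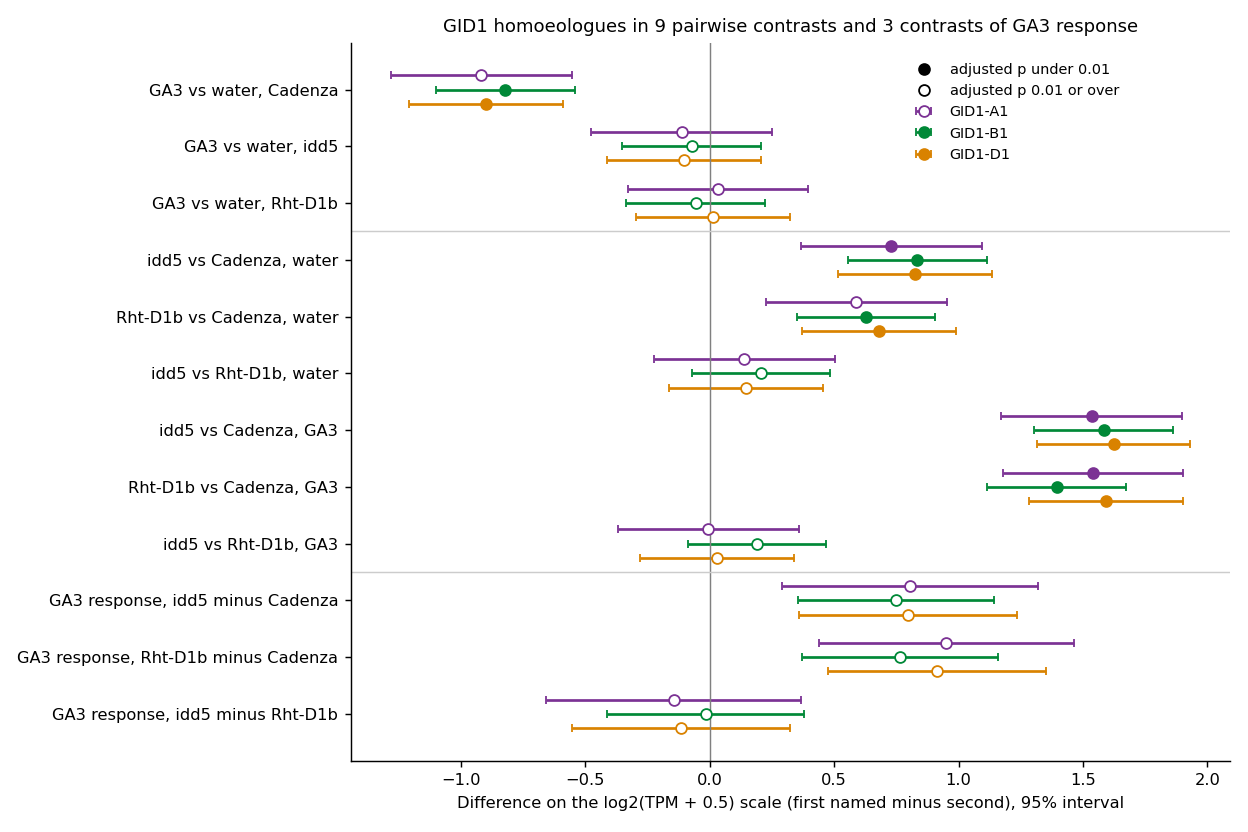
Difference on the log2(TPM + 0.5) scale, first named group minus second, with its 95% interval, for each *GID1* homoeologue in 9 pairwise contrasts and 3 contrasts of the GA3 response (filled points have a limma adjusted p under 0.01). The intervals of GA3 against water exclude 0 in Cadenza and include it in both semi-dwarf lines, and those of the semi-dwarf lines against Cadenza are farthest from 0 with GA3, between 1.11 and 1.93.

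Without added GA, the *idd5* line already had more receptor transcript than wild type. The summed level was 1.78-fold that of Cadenza in water, and all 3 members were called higher, beside 2.81% of all genes tested. *GID1-B1* averaged 15.4 ± 0.469 TPM in *idd5* and 8.49 ± 1.19 TPM in Cadenza (SD, n = 4 each), a log2 fold change of 0.83 (SE 0.13, limma adjusted p = 0.000248). *GID1-D1* averaged 16.4 ± 1.199 TPM in *idd5* and 9.10 ± 1.21 TPM in Cadenza (SD, n = 4 each), a log2 fold change of 0.83 (SE 0.15, limma adjusted p = 0.000776). *GID1-A1* averaged 16.4 ± 3.01 TPM in *idd5* and 9.61 ± 0.633 TPM in Cadenza (SD, n = 4 each), a log2 fold change of 0.73 (SE 0.17, limma adjusted p = 0.00905). The call of *GID1-A1* was close to the threshold, and of the 8 fits that each left out 1 library it held only without *idd5* replicate 4 (log2 fold change 0.63 to 0.85, limma adjusted p 0.00462 to 0.0434). It also ended without the filter on low values (limma adjusted p = 0.0150) and without the mean-variance trend (0.0140).

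In *Rht-D1b* seedlings without added GA the receptor transcripts were also above wild type. Their summed *GID1* level was 1.59-fold that of Cadenza, and 2 of 3 members were called higher, beside 1.69% of all genes tested. *GID1-B1* averaged 13.4 ± 1.30 TPM in *Rht-D1b* and 8.49 ± 1.19 TPM in Cadenza (SD, n = 4 each), a log2 fold change of 0.63 (SE 0.13, limma adjusted p = 0.00429). *GID1-D1* averaged 15.0 ± 2.42 TPM in *Rht-D1b* and 9.10 ± 1.21 TPM in Cadenza (SD, n = 4 each), a log2 fold change of 0.68 (SE 0.15, limma adjusted p = 0.00518). *GID1-A1* averaged 15.1 ± 4.28 TPM in *Rht-D1b* and 9.61 ± 0.633 TPM in Cadenza (SD, n = 4 each), and its log2 fold change of 0.59 (95% interval 0.23 to 0.95) missed the threshold with a limma adjusted p of 0.0376. Its *Rht-D1b* libraries had the widest relative spread of any member in any group, a coefficient of variation of 28.4%, with replicate 4 at 21.2 TPM and replicate 2 at 11.3 TPM. The calls of the other homoeologues each ended in 5 of 8 fits that left out 1 library, for *GID1-B1* without Cadenza replicates 2, 3 or 4 or *Rht-D1b* replicates 1 or 4 (limma adjusted p up to 0.0206), and for *GID1-D1* without Cadenza replicates 1 or 3 or *Rht-D1b* replicates 1, 3 or 4 (up to 0.0262). With only these 8 libraries in the fit the limma adjusted p of *GID1-D1* was 0.0147. In water, non-overlapping groups with the mutant higher were found for 3 of 3 members in both lines, beside 6.72% of all genes for *idd5* and 5.13% for *Rht-D1b*.

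With GA3 the estimated gap between the semi-dwarf lines and wild type was widest, and the Cadenza level was at its lowest. Its widening from water to GA3 is the difference of GA3 responses given above, for which no member passed the test. The summed level was 3.19-fold that of GA-treated Cadenza in *idd5* and 3.04-fold in *Rht-D1b*. In *idd5* all 3 members were called higher, beside 4.57% of all genes tested. *GID1-A1* averaged 15.3 ± 3.68 TPM in GA-treated *idd5* and 4.88 ± 0.752 TPM in GA-treated Cadenza (SD, n = 4 each), a log2 fold change of 1.53 (SE 0.17, limma adjusted p = 1.92e-06). *GID1-B1* averaged 14.7 ± 1.44 TPM in *idd5*, against 4.67 ± 1.18 TPM in Cadenza (SD, n = 4 each), a log2 fold change of 1.58 (SE 0.13, limma adjusted p = 3.94e-08). *GID1-D1* averaged 15.4 ± 2.14 TPM in *idd5*, against 4.67 ± 0.871 TPM in Cadenza (SD, n = 4 each), a log2 fold change of 1.62 (SE 0.15, limma adjusted p = 1.12e-07). Without replicate 2 of GA-treated *idd5*, the library that stood apart on chromosome 2A, the log2 fold changes were 1.49, 1.63 and 1.62 for *GID1-A1*, *GID1-B1* and *GID1-D1*, and the largest limma adjusted p was 1.71e-05. The summed level was then 3.20-fold that of GA-treated Cadenza.

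In GA-treated *Rht-D1b* all 3 members were likewise called higher than in GA-treated Cadenza, beside 3.24% of all genes tested. *GID1-A1* averaged 15.2 ± 2.101 TPM in *Rht-D1b*, a log2 fold change over Cadenza of 1.54 (SE 0.17, limma adjusted p = 2.38e-06). *GID1-B1* averaged 12.9 ± 1.76 TPM, a log2 fold change of 1.39 (SE 0.13, limma adjusted p = 2.86e-07). *GID1-D1* averaged 15.2 ± 3.58 TPM, a log2 fold change of 1.59 (SE 0.15, limma adjusted p = 1.90e-07). Over the fits that left out 1 library each, the 6 log2 fold changes of the semi-dwarf lines over GA-treated Cadenza stayed between 1.23 and 1.70 and each stayed called. They also stayed called under each other alternative that was run, the largest limma adjusted p being 0.00138 where only the groups compared were fitted. Non-overlapping groups with the mutant higher were found for 3 of 3 members in both lines, beside 7.22% of all genes for *idd5* and 6.38% for *Rht-D1b*. The contrasts of *idd5* and *Rht-D1b* with Cadenza use the same Cadenza libraries, so their agreement is not independent.

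Between the semi-dwarf lines themselves no member passed the test in either treatment. In water the log2 fold changes of *idd5* over *Rht-D1b* were 0.14 for *GID1-A1* (95% interval -0.22 to 0.50), 0.21 for *GID1-B1* (-0.07 to 0.49) and 0.14 for *GID1-D1* (-0.16 to 0.45), with limma adjusted p-values of 0.826, 0.595 and 0.776. The 2 groups did not overlap for *GID1-B1*, which lay between 14.9 and 16.0 TPM in *idd5* and between 11.9 and 14.5 TPM in *Rht-D1b* (exact two-sided permutation p = 0.0286, the smallest possible). Such a split with *idd5* higher was found in 4.12% of all genes, and 0.455% of genes were called in either direction. With GA3 the log2 fold changes were -0.01 for *GID1-A1* (-0.37 to 0.36), 0.19 for *GID1-B1* (-0.09 to 0.47) and 0.03 for *GID1-D1* (-0.28 to 0.34), with limma adjusted p-values of 0.995, 0.578 and 0.961, where 0.727% of genes were called. Without GA-treated *idd5* replicate 2 they were -0.05, 0.24 and 0.03 (limma adjusted p at least 0.565). These intervals allow differences of up to about 0.50 log2 units, so they do not show that the lines were alike.

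The shares of the homoeologues in the summed transcript were nearly even. Over 24 libraries *GID1-A1* made up 34.4 ± 2.87% of the sum (SD, range 27.9% to 40.0%), *GID1-B1* 31.6 ± 3.38% (24.3% to 37.7%) and *GID1-D1* 34.0 ± 2.89% (27.4% to 40.9%). *GID1-B1* was the lowest of the 3 in 15 libraries and the highest in 5, whereas *GID1-A1* was the highest in 12 and *GID1-D1* in 7. In *idd5* the mean shares of *GID1-A1*, *GID1-B1* and *GID1-D1* over both treatments were 33.6%, 32.4% and 34.0%. In *Rht-D1b* they were 34.8%, 30.5% and 34.7%, and in Cadenza 34.9%, 31.9% and 33.2%. Homoeologues have long stretches of identical sequence, and how the quantification divided reads between them could not be examined, so the shares are less certain than the sum.

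No share moved with genotype or treatment beyond the replicate spread. In GA-treated Cadenza, where the summed level was lowest, *GID1-A1*, *GID1-B1* and *GID1-D1* made up 34.4 ± 3.35%, 32.5 ± 5.48% and 33.0 ± 6.16% of it, against 35.4 ± 1.196%, 31.2 ± 2.75% and 33.4 ± 3.30% in water-treated Cadenza (SD, n = 4 each). Of 18 exact two-sided permutation tests, 9 between genotypes within treatments and 9 of GA3 against water, the largest difference between genotypes was 1.91 percentage points, for *GID1-B1* in *idd5* against *Rht-D1b* (exact p = 0.247). The largest between treatments was 1.38 points, for *GID1-B1* in Cadenza (exact p = 0.657), and the Benjamini-Hochberg adjusted p was 0.922 in each of the 18. A test of GA3 against water, with 4 libraries against 4, cannot give an exact p under 0.0286. After adjustment over 18 tests, 1 such shift alone could not have passed at 0.05, so these tests do not show that treatment left the shares unchanged. Without GA-treated *idd5* replicate 2 the largest difference between genotypes was 2.47 points, in the same comparison (exact p = 0.168), and the adjusted p stayed at 0.922 in each test that used *idd5*. The spread of a share was widest in GA-treated Cadenza, in which replicate 1 had 24.3% *GID1-B1* and 40.9% *GID1-D1*.

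**Figure D3:**
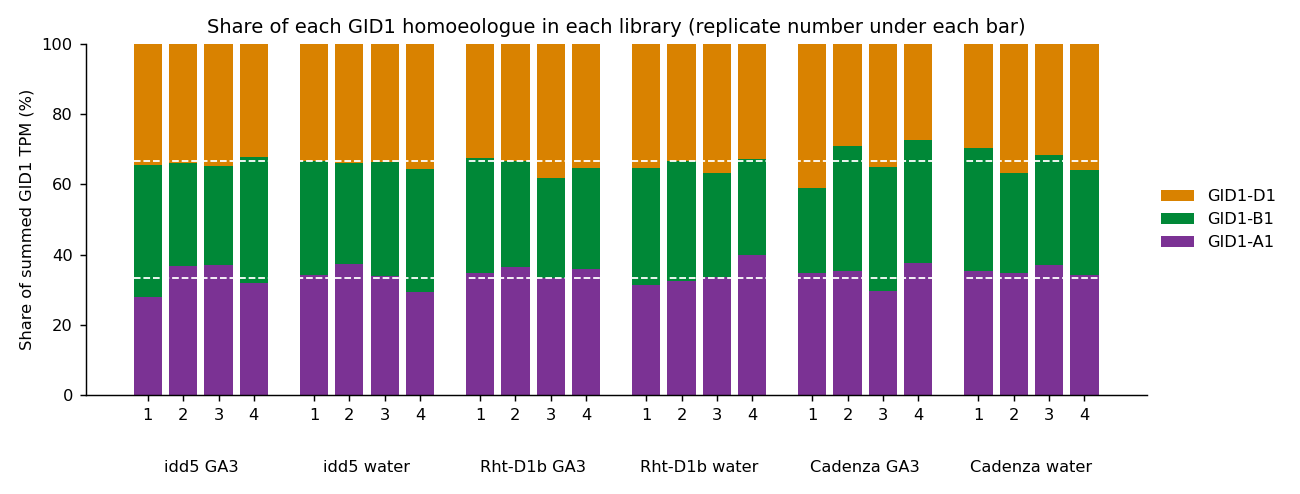
Share of each *GID1* homoeologue in the summed *GID1* TPM, in percent, with 1 bar for each of 24 libraries grouped by genotype and treatment (white dashed lines mark an equal split). The shares lie between 24.3% and 40.9%, and the lowest is *GID1-B1* in replicate 1 of GA-treated Cadenza.

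For the DELLA genes on the other side of the receptor complex, GA3 was first compared with water. Limma called 0 of the 3 *RHT* homoeologues in any genotype, beside 0.0965% of all genes in Cadenza and 0% in *idd5* and *Rht-D1b*. At an unadjusted p under 0.05 there was 1 in *idd5*, beside 6.67% of all genes, 0 in *Rht-D1b*, beside 5.86%, and 3 in Cadenza, beside 8.77%. In Cadenza the log2 fold changes of *RHT-A1*, *RHT-B1* and *RHT-D1* were 0.32, 0.29 and 0.41 with limma adjusted p-values of 0.0621, 0.128 and 0.01001, the last just over the threshold. The GA-treated libraries did not overlap with the water-treated ones for any of the 3, with GA3 higher, a split found in 2.26% of all genes. In water, *RHT-A1* was lower in *idd5* than in Cadenza (log2 fold change -0.36, limma adjusted p = 0.00303, beside 1.93% of all genes called lower) and *RHT-D1* was higher in *Rht-D1b* than in Cadenza (0.67, limma adjusted p = 2.35e-06, beside 1.69% called higher). With GA3 all 3 were lower in *idd5* than in Cadenza, the most so *RHT-D1* (-0.69, limma adjusted p = 5.85e-07, beside 4.84% of all genes called lower), while in *Rht-D1b* *RHT-D1* was higher (0.31, limma adjusted p = 0.00421, beside 3.24% called higher) and *RHT-A1* lower (-0.37, limma adjusted p = 0.00149, beside 4.78% called lower). Some of these calls rested on single libraries. Of the 6 *RHT* and *IDD5* genes, the number called for *idd5* over Cadenza in water was 2, beside 4.73% of all genes. It was 1 without Cadenza replicate 1 or *idd5* replicate 4 and with median-ratio scaling, and 4 at a threshold of 0.05. For *Rht-D1b* over Cadenza with GA3 the number was 2, beside 8.02% of all genes. It was 1 without Cadenza replicate 1, Cadenza replicate 2 or *Rht-D1b* replicate 3 or with no mean-variance trend. It was 0 where only those 8 libraries were fitted. The summed *RHT* level averaged 200.9 ± 17.0 TPM in GA-treated *idd5*, 185 ± 3.88 TPM in water-treated *idd5*, 273 ± 27.8 TPM in GA-treated *Rht-D1b* and 257 ± 12.2 TPM in water-treated *Rht-D1b*, against 291 ± 16.3 TPM in GA-treated Cadenza and 229.9 ± 9.95 TPM in water-treated Cadenza (SD, n = 4 each).

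The receptor transcripts were also set against the DELLA transcripts of the same library. For every 100 TPM of summed *RHT* there were 18.7, 25.4, 23.99 and 22.5 TPM of *GID1* in replicates 1 to 4 of GA-treated *idd5* and 25.5, 28.1, 27.6 and 23.2 TPM in water-treated *idd5*. There were 12.7, 17.2, 18.3 and 15.2 TPM in GA-treated *Rht-D1b* and 16.8, 14.2, 15.6 and 21.1 TPM in water-treated *Rht-D1b*. GA-treated Cadenza had 4.52, 4.53, 5.10 and 5.34 TPM and water-treated Cadenza 11.98, 12.8, 10.6 and 11.97 TPM. On this ratio *idd5* was above *Rht-D1b* in each treatment with no overlap between the groups. With GA3 the gap was narrow, 18.7 TPM in *idd5* replicate 1 against 18.3 TPM in *Rht-D1b* replicate 3. The GA-treated *Rht-D1b* libraries overlapped with water-treated Cadenza through replicate 1. Summed *GID1* overlapped between the semi-dwarf lines in each treatment, while summed *RHT* did not. With GA3 summed *RHT* was 177 to 217 TPM in *idd5* and 249 to 302 TPM in *Rht-D1b*, and in water 180 to 189 and 244 to 272 TPM. The *Rht-D1b* sum includes *RHT-D1*, whose product there lacks the part that GID1 binds, at 109 TPM with GA3 and 105 TPM in water. With GA3, *RHT-A1* and *RHT-B1* each overlapped between the semi-dwarf lines and *RHT-D1* did not, while in water none of them overlapped. The split on the ratio is therefore given only with *RHT-D1* counted in the sum. The mean ratio of GA-treated *idd5* was 22.6 ± 2.89 TPM (SD, n = 4), and 21.7 ± 2.72 TPM without replicate 2 (SD, n = 3). These are transcript ratios, given without a test, and protein was not measured in these files.

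**Figure D4:**
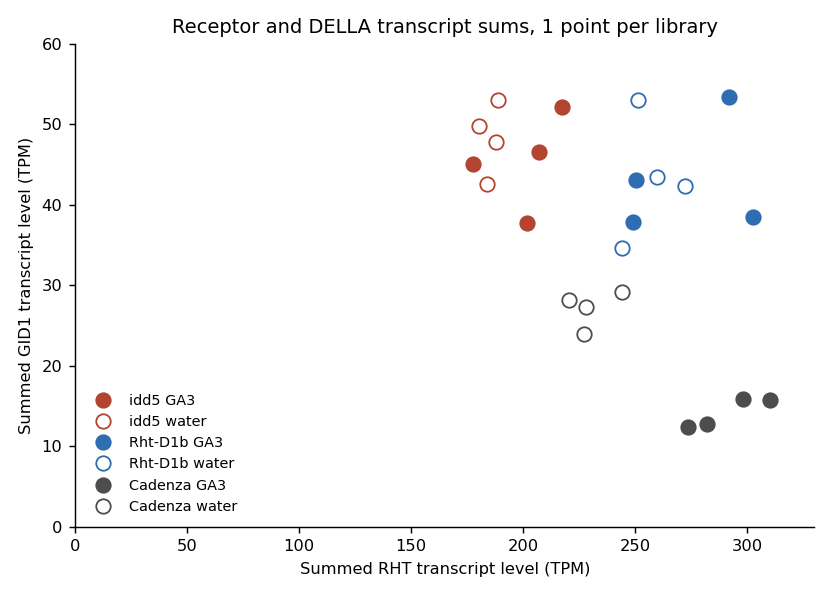
Summed *GID1* TPM (vertical axis) against summed *RHT* TPM (horizontal axis), 1 point per library, coloured by genotype, with filled points for GA3 and open points for water. The *idd5* libraries lie at high *GID1* and low *RHT*, and GA-treated Cadenza at low *GID1* (12.4 to 15.9 TPM) and high *RHT* (274 to 310.0 TPM).

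The homoeologues varied together across the libraries. Over 24 libraries the Pearson correlation of log2(TPM + 0.5) was 0.958 between *GID1-A1* and *GID1-D1*, 0.930 between *GID1-A1* and *GID1-B1*, and 0.936 between *GID1-B1* and *GID1-D1*. Among the 63240 other genes tested, *GID1-D1* was the most similar to *GID1-A1* and *GID1-A1* the most similar to *GID1-D1*, while *GID1-A1* ranked at position 7 and *GID1-D1* at position 4 for *GID1-B1*. Most of this likeness was between groups, since with the group means taken out the correlations were 0.65, 0.41 and 0.28 in the same order. The values share their library, and whether they also share reads that match more than 1 homoeologue could not be examined.

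Among 51454 other genes whose mean reached 1 TPM, the pattern nearest to the mean of the members was that of TraesCS7D02G149200 (r = 0.951 over 24 libraries), followed by TraesCS7B02G278200 (r = 0.945). TraesCS7D02G149200 averaged between 59.6 and 65.2 TPM in the 4 mutant groups, against 15.7 TPM in GA-treated Cadenza and 38.7 TPM in water-treated Cadenza. The most opposite patterns were those of TraesCS1D02G020000 (r = -0.956) and TraesCS7D02G465400 (r = -0.947), and the second averaged between 39.9 and 43.0 TPM in the mutant groups, against 79.2 TPM in GA-treated Cadenza and 63.4 TPM in water-treated Cadenza. The files do not pair these identifiers with gene names.

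Calls among the genes beside the members on the chromosome were counted and set beside the shares over all genes. Among the 10 tested genes on either side of each member in the order of identifiers, 60 in all, limma called 0 for GA3 over water in each genotype, and at an unadjusted p under 0.05 there were 7 in *idd5*, 1 in *Rht-D1b* and 4 in Cadenza, beside 6.67%, 5.86% and 8.77% of all genes. For *idd5* over Cadenza, 2 of the 60 were called higher and 3 lower in water, beside 2.81% and 1.93% of all genes, and 3 higher and 3 lower with GA3, beside 4.57% and 4.84%. For *Rht-D1b* over Cadenza, 0 were called higher and 2 lower in water, beside 1.69% and 2.23% of all genes, and 2 higher and 2 lower with GA3, beside 3.24% and 4.78%. The gene at position 8 from *GID1-A1* was called lower in *idd5* (log2 fold change -0.77 in water, -0.78 with GA3) and in *Rht-D1b* (-0.93 and -0.99). The gene at position 8 from *GID1-B1* was also called lower in *idd5* (-0.85 and -1.20) and in *Rht-D1b* (-0.81 and -1.06). The gene at position -6 from *GID1-D1* was called lower in *idd5* over Cadenza (-0.62 and -1.02). Those called higher were all beside *GID1-B1* or *GID1-D1*. The gene at position -2 from *GID1-B1* was called higher in *idd5* in water (log2 fold change 0.60, limma adjusted p = 0.00163) and with GA3 (0.63, limma adjusted p = 0.000533), and in *Rht-D1b* with GA3 (0.53, limma adjusted p = 0.00318). On the same side of *GID1-B1*, the gene at position -4 was called higher in *idd5* with GA3 (0.52, limma adjusted p = 0.0054). That at position -1 was called higher in *Rht-D1b* with GA3 (0.46, limma adjusted p = 0.00582). The gene at position -4 from *GID1-D1* was called higher in *idd5* in water (0.45, limma adjusted p = 0.00264) and with GA3 (0.42, limma adjusted p = 0.00294). The median log2 fold change of the 20 neighbours was between -0.08 and 0.06 for each member in each of the 9 pairwise contrasts. No neighbour had as high a log2 fold change as its member in *idd5* or *Rht-D1b* with GA3, the highest being 0.41 and 0.62 beside *GID1-A1*, 0.63 and 0.53 beside *GID1-B1*, and 0.42 and 0.41 beside *GID1-D1*, in that order of genotypes.

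**Figure D5:**
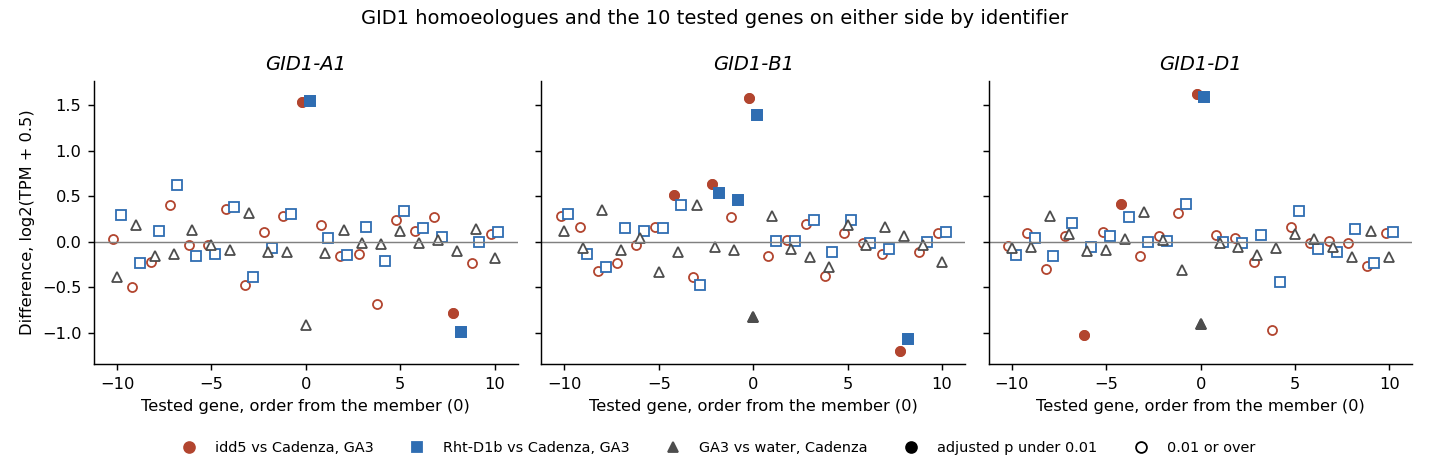
Difference on the log2(TPM + 0.5) scale of each *GID1* homoeologue (position 0) and of the 10 tested genes on either side, by order of identifiers, for *idd5* over Cadenza with GA3, *Rht-D1b* over Cadenza with GA3 and GA3 over water in Cadenza (filled points have a limma adjusted p under 0.01). The member is the highest point of its panel in both mutant contrasts and the lowest triangle for GA3 in Cadenza, while the medians of the neighbours lie between -0.06 and 0.06.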

How the data were processed

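Leaf sheath RNA-seq of *idd5*, *Rht-D1b* and Cadenza, treated with GA3 or water, was analysed in 24 libraries, grouped by the sample labels. The authors trimmed paired reads with Trimmomatic (0.39), quantified them with Kallisto (version not given in the sources used here) and deposited TPM in 1 table. The release of the wheat gene models in the methods is not the one in the series text. The authors' own contrasts came from DESeq2 on counts, which were not used here. TPM keeps no read depth, so no floor or counting interval was derived.

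Log2(TPM + 0.5) was tested with limma (3.58.1) in R (4.3.3). The model had 1 mean for each of 6 groups and empirical Bayes moderation with a trend of variance on mean. Genes were tested where 4 or more libraries reached 0.5 TPM, which left 63241, and p-values were adjusted over all of them by Benjamini-Hochberg (threshold 0.01). There were 9 pairwise contrasts and 3 contrasts of the GA3 response. The model was tested on simulated data with known changes. Homoeologue shares were compared by exact permutation (two-sided, Python 3.11.15 with scipy 1.17.1), within treatment between genotypes. A planned permutation test of the summed TPM is not given, because the sum is a score over the members.

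The members and gene lists were chosen with earlier results of these data known. Named genes were the 3 members, the 6 *RHT* and *IDD5* homoeologues and, where the mean reached 1 TPM, the 2 genes with the highest and the 2 with the lowest correlation with the mean of the members. Alternatives were other pseudocounts (0.1 and 1), no filter or one at 2 TPM, scaling of libraries by median ratios, fitting the compared groups alone, moderation without trend, a threshold of 0.05, a replicate block, and leaving out each library in turn. Leaving GA-treated *idd5* replicate 2 out of the sums, shares and ratios was added after seeing the data.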

Additional observations from a re-analysis of the deposited data

Results flagged for a closer look

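The share of *GID1-B1* in replicate 1 of GA-treated Cadenza was 24.3% of the summed *GID1* TPM, while the other replicates of that group had between 35.0% and 35.6%. Its distance to the nearest of the others was 0.945 of the whole range of the group, which is beyond Dixon's 95% critical value for 4 samples. The same library had the lowest *GID1-B1* level of all, 3.10 TPM. Of 42 groups of values examined in this way, this was the 1 that stood out, and chance alone flags about 1 group in 20.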

How the results depend on the processing

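The 6 calls of the semi-dwarf lines over GA-treated Cadenza, and those of *GID1-B1* and *GID1-D1* in *idd5* over Cadenza in water, held under every alternative that was run. Other calls were near the threshold. For GA3 in Cadenza, *GID1-B1* (-0.82) lost its call with no trend (limma adjusted p = 0.0127) and with only the groups compared (0.0967). *GID1-D1* (-0.90) lost it with no filter (0.0110), no trend (0.0132), only the groups compared (0.0432) and median-ratio scaling (-0.87, 0.0112). *GID1-A1* was called at 0.05 for GA3 in Cadenza (-0.92) and for *Rht-D1b* over Cadenza in water (0.59). In water, *GID1-A1* in *idd5* over Cadenza (0.73) lost its call with no filter (0.0150) and no trend (0.0140), and *GID1-D1* in *Rht-D1b* over Cadenza (0.68) with only the groups compared (0.0147). Median-ratio scaling turned 2 values near no change, the difference of the *GID1-B1* response between *idd5* and *Rht-D1b* (0.00097) and the summed level of GA-treated over water-treated *Rht-D1b* (1.01-fold).

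Replicates with the same number did not deviate together (mean correlation 0.0124, over 0.1 in 5 of 60 pairs), so the numbers are shared names only. With the replicate number as a block, *GID1-A1* in *idd5* over Cadenza in water (0.73) had a limma adjusted p of 0.0120, and the mean ratio of same-numbered *Rht-D1b* libraries, GA3 over water, was 1.03. The block changed no other *GID1* call.

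With 1 library left out, the ranges in log2 units were -0.91 to -0.66 (*GID1-B1*) and -0.98 to -0.79 (*GID1-D1*) for GA3 in Cadenza, 0.63 to 0.85 for *GID1-A1* in *idd5* over Cadenza in water, and 0.58 to 0.72 (*GID1-B1*) and 0.60 to 0.80 (*GID1-D1*) for *Rht-D1b* over Cadenza in water, where calls were lost. Values near 0 changed sign. For GA3 over water these were *GID1-A1* in *idd5* (-0.23 to 0.051) and, in *Rht-D1b*, *GID1-A1* (-0.090 to 0.21), *GID1-B1* (-0.14 to 0.018) and *GID1-D1* (-0.14 to 0.093). For *idd5* over *Rht-D1b* with GA3 they were *GID1-A1* (-0.12 to 0.16) and *GID1-D1* (-0.053 to 0.18). The response of *idd5* minus that of *Rht-D1b* ranged from -0.32 to 0.018 (*GID1-A1*), -0.091 to 0.062 (*GID1-B1*) and -0.20 to 0.032 (*GID1-D1*).

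With 1 replicate number left out of all groups, or GA-treated *idd5* replicate 2 alone, share differences in percentage points changed sign as follows. For *GID1-A1* the ranges were -2.41 to 0.0292 (*idd5* over Cadenza), -0.841 to 0.474 (*Rht-D1b* over Cadenza), -2.39 to 0.870 (*idd5* over *Rht-D1b*), and for GA3 over water -2.45 to 1.13 in Cadenza, -1.50 to 1.65 in *idd5* and -0.307 to 2.47 in *Rht-D1b*. For *GID1-B1* they were -1.05 to 1.79 (*idd5* over Cadenza), and for GA3 over water -0.520 to 5.37 in Cadenza and -0.909 to 2.19 in *idd5*. For *GID1-D1* they were -1.17 to 0.0330 (*idd5* over *Rht-D1b*), and for GA3 over water -4.28 to 2.26 in Cadenza, -0.737 to 0.796 in *idd5* and -0.362 to 1.51 in *Rht-D1b*. The summed level ranged from 0.910 to 1.12-fold for GA3 over water in *Rht-D1b* and from 0.99978 to 1.08-fold for *idd5* over *Rht-D1b* with GA3.

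The number of the 6 *RHT* and *IDD5* genes called for GA3 in Cadenza was 0, and 1 with a pseudocount of 0.1, median-ratio scaling, a filter at 2 TPM, a threshold of 0.05 or the replicate block. High-confidence gene models alone were not run as an alternative, since 0 identifiers of the table are of the low-confidence class. Apart from the settings that narrow the libraries or move the threshold, the cause of a lost call was not tested. Depth is unknown.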
